A study of Mus musculus with 2 samples.

Results

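The 40 cell cycle genes described here were fixed by name, 20 that act in S phase or at its onset and 20 that act in G2 and mitosis, among 31053 genes counted. They were followed in 3186 cells kept of 4970 barcodes, from 2 single-cell libraries (replicates 1 and 2) of C57BL/6 mouse brain tumour with mutant IDH1, taken at the symptomatic stage. Both libraries belong to 1 group, so the comparisons are between cell classes within the tumours, and no tumour with wild-type IDH1 was analysed here. The labels name neither the driver of the mutant gene nor whether the libraries are separate animals, so the p-values measure only the spread between these libraries, which may be technical. Tumour cells were the kept cells with at least 1000 CPM of Nras (CPM, a gene's share of the UMIs, scaled to a fixed total of 1000000). Host cells had less Nras and were classed by a defining gene: C1qa for macrophages and microglia, Ly6c2 with Lyz2 for monocytes, Mcpt8 for basophils, Ccr7 for dendritic cells (DC) and Cd3e for T cells. This gave 1981 tumour cells, 450 macrophages/microglia, 71 monocytes, 138 basophils, 76 DC and 52 T cells. A further 56 barcodes met several host rules and 335 met none, and 27 neutrophils served as a reference for cells that no longer divide.

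Cells copy their DNA in S phase and part it in mitosis, and each step needs its own proteins. The MCM helicase, Cdc6, Cdc45 and Gins2 open replication origins, and Pcna, ribonucleotide reductase (Rrm1, Rrm2) and Tyms serve DNA synthesis, under E2F1 and the E cyclins. Cdk1 with cyclins A2, B1 and B2 drives entry into mitosis, the ubiquitin enzyme Ube2c and its partner Cdc20 drive the exit, and Top2a, Birc5, Tpx2 and the kinesins work on chromosomes and the spindle. Tissue macrophages and microglia can divide where they reside, whereas mature neutrophils have left the cell cycle.

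The libraries held 63001350 and 58915133 UMIs (unique molecules counted). Median UMIs per cell were 44650 in tumour cells, 8976 in macrophages/microglia, 9134 in monocytes, 3220 in basophils, 5780 in DC, 5123 in T cells and 2355 in neutrophils, so shares were counted after each cell had been thinned to 2000 UMIs. The libraries shared 10 barcode sequences, 9 of them among kept cells. All 10 listed macrophage/microglia, 8 monocyte, 9 basophil and 9 DC markers reached 10 CPM in their own class. Ly6c2, Lyz2, Mcpt8 and Ccr7 are among these markers and define the classes, so their presence was fixed by the rule. Markers of other cell types were found as well. The monocyte class held the 6 neutrophil markers, at 43699 and 20733 CPM summed. T cells held natural killer cell markers at 3735 and 2868 CPM summed. DC held the 5 B cell markers at 628 and 576 CPM summed, and T cell markers at 405 and 25.3 CPM. Some host barcodes carried RNA of tumour markers. Those with at least 3 UMIs and 300 CPM of 10 such markers are called tumour-marked below, and 1943 of the 1981 tumour cells met the same mark. It was met by 3 macrophages/microglia, 4 monocytes, 5 basophils, 3 DC and 2 T cells. The mark can rest on few UMIs and need not mean tumour origin: 1 of these T cells had 3 marker UMIs and no Nras. The results are given with and without the tumour-marked host barcodes, a choice made after the data were seen.

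Promoters of well counted members of each phase are printed to show what the motif counts refer to. Capitals mark TTTGAA (the cell cycle homology element of late genes), CCAAT, and the E2F-type sites TTTGGCGC or TTTCCCGC, each on either strand. Sequences are the 250 bases before the transcription start that RefSeq lists (GRCm38.p6), read 5′ to 3′ on the gene's strand. That start need not be the outermost one of the gene as GENCODE annotates it. RefSeq's table has 2 starts for Mcm7, the first of which was used and lies inside the GENCODE gene. The Ube2c stretch runs slightly past the GENCODE gene's start.
Mcm6 (chr1:128359706-128359955, minus strand): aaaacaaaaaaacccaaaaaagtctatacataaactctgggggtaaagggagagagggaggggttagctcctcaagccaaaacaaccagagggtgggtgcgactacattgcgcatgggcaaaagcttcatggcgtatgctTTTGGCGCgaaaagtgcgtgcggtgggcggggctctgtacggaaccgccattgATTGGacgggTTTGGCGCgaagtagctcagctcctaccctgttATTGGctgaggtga
Mcm7 (chr5:138171884-138172133, minus strand): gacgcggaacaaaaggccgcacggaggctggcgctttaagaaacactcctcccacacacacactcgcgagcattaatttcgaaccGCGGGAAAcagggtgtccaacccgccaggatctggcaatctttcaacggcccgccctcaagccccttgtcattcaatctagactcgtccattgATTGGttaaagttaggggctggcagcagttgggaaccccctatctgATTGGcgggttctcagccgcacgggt
Ube2c (chr2:164769679-164769928, plus strand): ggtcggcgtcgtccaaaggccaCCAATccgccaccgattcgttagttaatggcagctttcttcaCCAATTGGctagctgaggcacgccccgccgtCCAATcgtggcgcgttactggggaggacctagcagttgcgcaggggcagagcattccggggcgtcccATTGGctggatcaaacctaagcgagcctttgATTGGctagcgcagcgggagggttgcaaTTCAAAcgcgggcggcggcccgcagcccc
Top2a (chr11:99024190-99024439, minus strand): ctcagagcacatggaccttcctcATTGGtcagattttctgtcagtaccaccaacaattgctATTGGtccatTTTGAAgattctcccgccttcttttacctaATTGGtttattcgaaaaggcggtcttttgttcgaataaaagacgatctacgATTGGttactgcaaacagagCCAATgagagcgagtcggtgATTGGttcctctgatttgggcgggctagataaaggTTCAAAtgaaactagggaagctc

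Promoters were found for 34 of the 40 members, 17 of each phase, with 19 promoters for the S members. In the table's whole window of 300 bases, from 250 before to 50 after the start, TTTGAA stood in 12 of 17 G2/M promoters (70.6%), 2 of 19 S promoters (10.5%) and 17.9% of all 32851 promoters. With only the 250 bases before the start, a window chosen after those counts had been seen, TTTGAA remained in 7 of 17 G2/M promoters (41.2%), against 16.0% of all promoters. The E2F-type sites stood in 6 of 19 S promoters (31.6%), in 0 of 17 G2/M promoters and in 1.56% of all promoters in the whole window, and in 4 of 19 (21.1%) and 1.30% before the start. CCAAT was in 14 of 17 G2/M and 14 of 19 S promoters in either window, against 37.4% of all promoters in the wider one. These are matches of letters, described without a test.

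In tumour cells the members were abundant in both libraries. The 20 S members summed to 969 and 939 CPM (954 ± 21, SD, n = 2) and the 20 G2/M members to 1519 and 1621 CPM (1570 ± 72.3). By role, origin licensing and firing genes summed to 487 and 477 CPM, DNA synthesis genes to 321 and 312 CPM, mitotic kinases and cyclins to 484 and 513 CPM, and chromosome and kinetochore genes to 501 and 525 CPM. The host classes lay lower and were less even between libraries. Macrophages/microglia had 336 and 399 CPM of the S members and 425 and 204 CPM of the G2/M members, a more than 2-fold gap between libraries in the latter. Monocytes had 150 and 148 CPM, and 29.2 and 150 CPM. T cells had 835 and 827 CPM of S members (564 and 827 CPM without tumour-marked barcodes), nearest to the tumour level, and 124 and 419 CPM of G2/M members. These T cell sums rest on few barcodes: 1 in replicate 2 held 94 of the 264 S member UMIs of both libraries. The 3 richest in members, 1 of them tumour-marked, held 64.1% of all member UMIs of the class. Basophils had 632 and 542 CPM of S and 889 and 1228 CPM of G2/M members, but 556 and 224 CPM and 32.7 and 22.8 CPM without the tumour-marked barcodes. DC had 502 and 503 CPM, and 193 and 1376 CPM, against 329 and 311 CPM, and 26.7 and 99.1 CPM, without them. Neutrophils had 110 and 81.0 CPM, and 36.5 and 0 CPM.

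**Figure D1:**
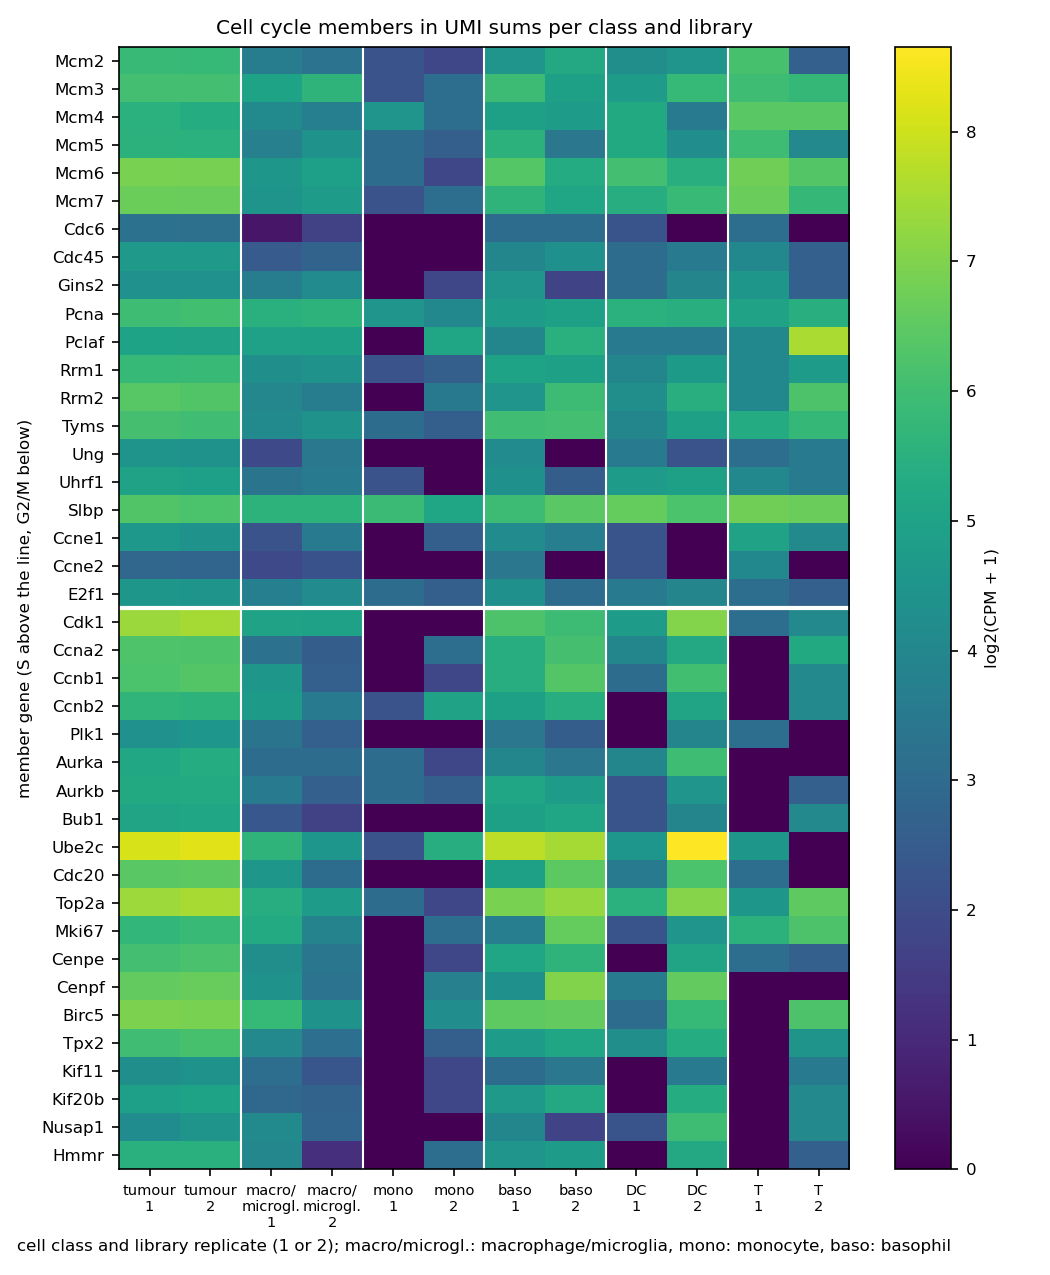
Colour gives log2(CPM + 1) of each member (rows, S members above the white line) in the UMI sum of each class and library (columns). The tumour columns are high and alike, while host columns vary between libraries and monocyte and T cell columns hold several members at 0.

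A cell was called cycling when at least 3 of its 2000 UMIs came from the members. In tumour cells, 1136 of 1960 scored cells were cycling (58.0%, exact binomial 95% interval 55.7 to 60.2%), with 57.8% and 58.2% in the 2 libraries. Among them 307 were S-positive only (at least 3 UMIs of S members), 463 were G2/M-positive only, 252 were both and 114 reached 3 UMIs only over both phases. All binomial intervals cover counting error only. Macrophages/microglia had 43 cycling cells of 416 (10.3%, 7.58 to 13.7%), with 11.5% and 9.09% per library, of which 28 were S-positive and 21 G2/M-positive. T cells had 6 of 51 (11.8%, 4.44 to 23.9%), with 12.5% and 11.1% per library, and 5 were S-positive and 1 G2/M-positive. DC had 6 of 74 (8.11%, 3.03 to 16.8%), with 4.76% and 12.5% per library. Basophils had 4 of 132 (3.03%, 0.832 to 7.58%), with 2.86% and 3.23% per library, but 5.30% with another random draw of the UMIs. Monocytes had 1 of 70 (1.43%, 0.0362 to 7.70%), with 0 and 2.70% per library. Neutrophils had 0 of 15 (exact binomial 95% interval 0 to 21.8%; the limit of 3 counts of 15 is 20%), so this reference sets only a loose background. No host interval reached that of the tumour cells, whereas the host intervals overlapped or nearly met one another.

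Without the tumour-marked barcodes the macrophage/microglia share was 42 of 413 (10.2%) and the T cell share 5 of 49 (10.2%). Basophils kept 1 cycling cell of 127 (0.787%) and DC 4 of 71 (5.63%), and neither class then held a G2/M-positive cell. With all barcodes, tumour-marked ones included, the shares are tied to depth and threshold. At 5000 UMIs a cell they were 81.0% in tumour cells, 22.5% in macrophages/microglia and 2.94% in monocytes. At 1000 UMIs they were 36.1%, 6.05% and 1.41%. The order of the host classes changed as well at 5000 UMIs. Basophils (7 of 19 scored cells, 36.8%), DC (19 of 53, 35.8%) and T cells (10 of 27, 37.0%) then all stood above macrophages/microglia (78 of 346). Of the 138 basophils, 119 were then too shallow to score, whereas all 5 tumour-marked ones (11088 to 126399 UMIs) were deep enough. So were the 3 tumour-marked DC (20347 to 54252 UMIs) and 1 tumour-marked T cell barcode (14517 UMIs). Shares at 5000 UMIs were not counted without the tumour-marked barcodes.

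**Figure D2:**
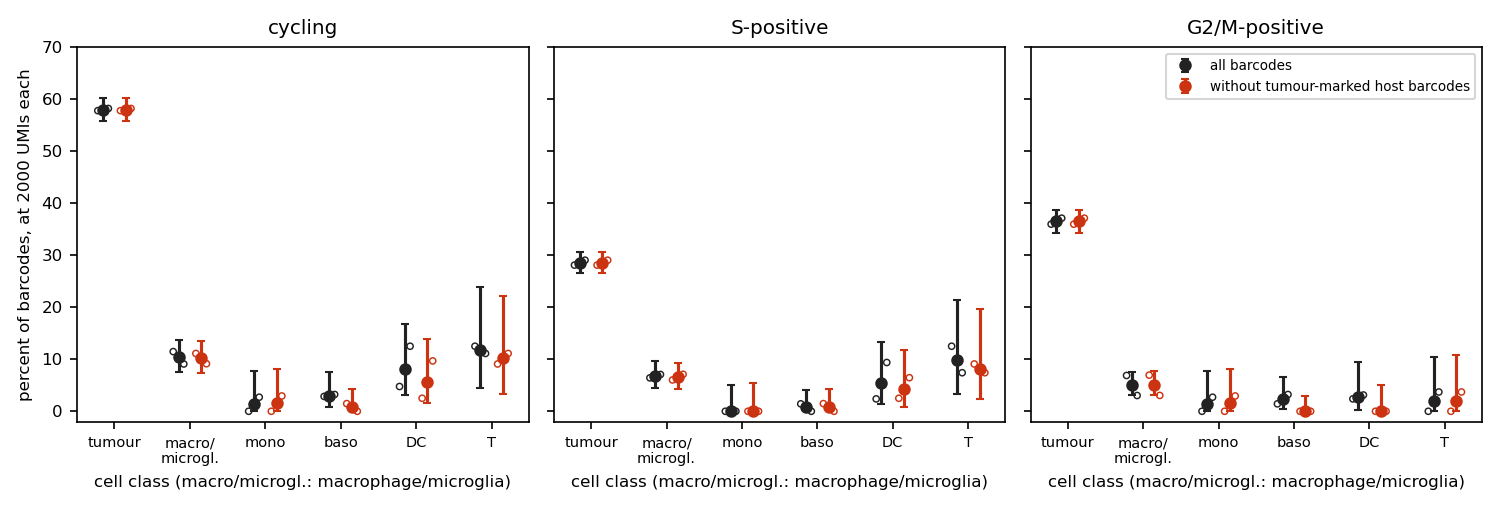
Percent of barcodes, thinned to 2000 UMIs each, called cycling, S-positive or G2/M-positive in each class, with exact binomial 95% intervals and each library as an open circle. Tumour cells stand at 58.0% cycling, macrophages/microglia at 10.3%, and the G2/M-positive shares of basophils and DC are 0 without tumour-marked barcodes (red).

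At full depth, 37 macrophages/microglia had at least 1500 CPM of the members, 23 in replicate 1 and 14 in replicate 2, and they held 63.2% of the member UMIs of that class. The G2/M members had more UMIs in 19 of them and the S members as many or more in 18. C1qa, a complement gene of macrophages and microglia, ranged from 10 to 375 UMIs in the 37, and Nras did not exceed 275 CPM. Both genes belong to the class rule. No UMI of any tumour marker was found in 24 of the 37, against 370 of the other 413 of the class. Those 413 were shallower (median 8783 against 11354 UMIs). Median Nras was 53.4 CPM in the 37 and 0 in the 413, and the class's own markers summed to 62107 and 79344 CPM. Of the 37, 12 had no Malat1, a nuclear RNA, and those were shallower (median 5508 UMIs) than the 25 with Malat1 (median 13142 UMIs). The share was about the same where Malat1 and the microglial receptor gene Cx3cr1 were both found (31 of 306 cells, 10.1%) and where Malat1 was absent (12 of 100 cells, 12%). None of the 10 scored cells with Malat1 but no Cx3cr1 was cycling (exact binomial 95% interval 0 to 30.8%).

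In the other host classes, barcodes with at least 1500 CPM of the members were few. In basophils 6 barcodes passed 1500 CPM, and 4 were tumour-marked, with 41059 to 126399 UMIs, only 1 to 3 UMIs of Mcpt8, a basophil protease, and Nras up to 989 CPM, just under the tumour threshold. The other 2 basophils had 155 and 58 UMIs of Mcpt8 and 60 and 68 UMIs of S members, but 2 UMIs of G2/M members each. Both DC barcodes that passed were tumour-marked. Of the 3 T cell barcodes, 1 was tumour-marked, and another, in replicate 2, held 94 UMIs of S and 69 of G2/M members, which was 72.6% of the G2/M member UMIs of all T cells. The 1 monocyte had 35 UMIs of G2/M and 7 of S members, 52.2% of the G2/M member UMIs of its class. The 5 tumour-marked basophils held 40% of the UMIs and 98.4% of the G2/M member UMIs of their class, and the 3 tumour-marked DC 18.1% and 93.5%. Tumour cells held 6.13 CPM of Xist, the RNA of the inactive X chromosome, against 1242 CPM in macrophages/microglia and 390 CPM in basophils. No Xist UMI was found in 4 of the 5 tumour-marked basophils, nor in 57 of the 133 other, much shallower basophils. Xist was also absent from 14 of the 37 macrophages/microglia above 1500 CPM, 11 of them without Malat1 as well. It was absent from 127 of the other 413 of that class and from 1936 of the 1981 tumour cells. Whether tumour-marked barcodes or those without Xist hold a tumour cell, 2 cells or free RNA was not tested.

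**Figure D3:**
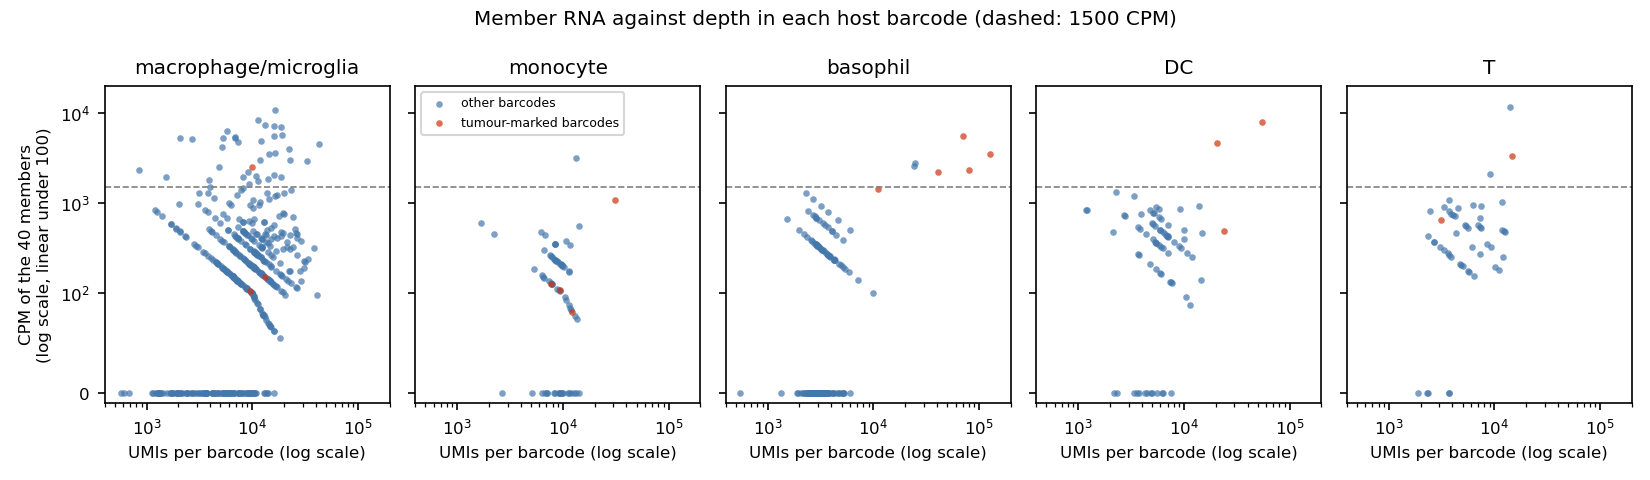
Each point is 1 host barcode, with its UMIs (log scale) against the CPM of the 40 members (log scale, linear under 100), and tumour-marked barcodes in red. The basophil and DC barcodes above the dashed line at 1500 CPM are mostly red and deep, while 36 of the 37 macrophage/microglia barcodes above it are not marked.

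Counts were summed per class and library and tested over 12861 genes with edgeR's quasi-likelihood test, and calls required a 2-fold difference and, after Benjamini-Hochberg adjustment over these genes, p under 0.05. Against tumour cells, macrophages/microglia had 31 of 40 members called lower, where 27.1% of all genes were called lower, and none higher. The median log2 difference was -1.84 over the members and -0.23 over all genes tested. Ube2c had 49.0 and 22.3 CPM in macrophages/microglia against 276 and 308 CPM in tumour cells (log2 fold change -2.89 ± 0.21, SE, edgeR adjusted p = 4.0e-43). Cdk1 had 30.9 and 29.7 CPM against 163 and 178 CPM (-2.37 ± 0.15, adjusted p = 1.4e-51), and both libraries of 1 class lay clear of both of the other. Mcm6, a subunit of the replicative helicase, had 22.7 and 28.4 CPM against 118 and 117 CPM (-2.07 ± 0.16, adjusted p = 3.8e-36). Slbp, which binds histone mRNA, had 47.2 and 47.6 CPM against 77.3 and 73.5 CPM and missed the 2-fold limit (-0.54 ± 0.15). Pclaf, a partner of PCNA, had 29.9 and 29.3 CPM against 31.8 and 30.7 CPM and did not pass the test (0.04 ± 0.19).

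Monocytes had 38 members lower than tumour cells (23.1% of all genes lower), 9 of them with no UMI in the class, Cdk1 included. DC had 26 lower (15% of all genes) and T cells 18 lower (15.6%), 17 of these G2/M members. In T cells Ube2c had 23.2 and 0 CPM, on 3 UMIs. Pclaf was the 1 member called higher than in tumour cells, in T cells (9.66% of all genes higher), but with 15.5 and 186 CPM it rested on replicate 2, and it was no longer higher with each cell thinned before summing (log2 difference -0.23). With DESeq2, 19 members were lower than in tumour cells in macrophages/microglia (20.03% of all genes lower). There were 5 in DC (10.99%), not far above that share, and 9 in T cells (11.22%). Basophils had only 3 members lower (6.15% of all genes), Cdk1, Aurka and Mcm7. Without the tumour-marked barcodes 27 members were lower in basophils (21.3% of all genes), 35 in DC (20.9%) and 18 in T cells (15.7%), monocytes had 37 (21%), and macrophages/microglia again had 31 (27.5%). Pclaf was again the 1 member higher, in T cells (9.08%). Genes were tested with at least 50 UMIs over all 12 sums. Tumour cells held 102904618 UMIs and monocytes 666189, so a gene could pass through tumour cells alone. With filterByExpr and all barcodes, 30 members were tested. Of these, 25 were lower in macrophages/microglia (25.5% of all genes), 27 in monocytes (25.9%), 7 in basophils (15.2%), 19 in DC (24.2%) and 14 in T cells (22.1%).

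The host classes were then set against the mean of the other 4, and the answer turned on the tumour-marked barcodes. With all barcodes, basophils had 23 of 40 members higher (15.1% of all genes higher), 16 of them G2/M members. Top2a, the mitotic topoisomerase, had 119 and 156 CPM in basophils, and Ube2c 218 and 180 CPM. Without the 5 marked basophils Top2a stood at 3.63 and 9.12 CPM and Ube2c at 0 and 4.56 CPM (1 UMI), and 2 members were higher, Mcm6 and Slbp (8.5% of all genes). DC went from 9 members higher (9.49%) to 0 (8.3%); in DC, Ube2c went from 22.3 and 402 CPM to no UMI.

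Macrophages/microglia went from 2 members higher, Cdk1 and Gins2 (15.2% of all genes), to 22 (18.1%), of which 17 were G2/M members. Their own levels hardly moved (Top2a 40.8 and 26.2 CPM before, 40.7 and 26.4 CPM after). For 16 of the 22, some other host class then had no UMI in either library, so fitted folds depend on the prior count and are not given. With host Nras limited to under 200 CPM, 19 members were higher in macrophages/microglia (17.5% of all genes) and 5 in basophils (7.49%). With each cell thinned before summing, 38 members were tested. Of these, 9 were higher in macrophages/microglia (19.1% of all genes), not far above that share, and 1 in basophils (9.96%). In only 2 of the 22 did both macrophage/microglia libraries lie above every library of the other host classes. Pcna, the sliding clamp of DNA polymerase, was among the 6 with UMIs in every class, at 44.9 and 47.9 CPM (log2 fold change 1.01 ± 0.25, edgeR adjusted p = 0.00095). Pcna had 31.2 and 45.0 CPM in DC, 26.9 and 42.4 CPM in T cells, 22.7 and 14.6 CPM in monocytes and 18.2 and 13.7 CPM in basophils, so replicate 2 of DC lay above the lower macrophage/microglia library.

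T cells had 5 members higher than the other host classes (3.9% of all genes) with all barcodes, Mcm4, Mcm6, Mcm7, Pclaf and Mki67, and 8 without the marked ones (3.87%). Mcm4 had 85.1 and 84.8 CPM in T cells, above both libraries of each other host class (1.94 ± 0.41, adjusted p = 7.0e-05), and 53.7 and 84.8 CPM without the marked barcodes (2.12 ± 0.47, adjusted p = 0.00085). Monocytes had none higher in either case (7.64% and 8.58%), and 24 and then 3 lower (4.15% and 1.73%). The other classes had few members lower: with all barcodes 1 in macrophages/microglia (5.16% of all genes), 0 in basophils (3.51%), 1 in DC (4.46%) and 2 in T cells (5.26%), and without the marked ones 0 (4.14%), 0 (3.69%), 1 (5.33%) and 0 (4.02%).

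**Figure D4:**
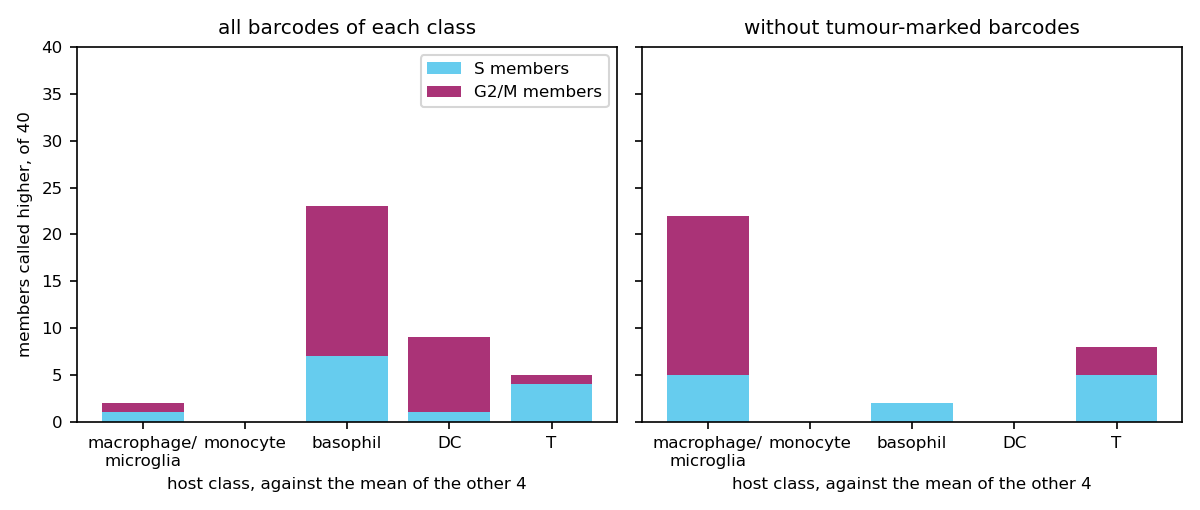
Number of the 40 members called higher in each host class than in the mean of the other 4, S and G2/M members stacked. With all barcodes (left) basophils lead with 23, and without tumour-marked barcodes (right) macrophages/microglia lead with 22 and basophils have 2.

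Other genes of the pathway, 103 in 10 lists, were counted beside the members. In macrophages/microglia against tumour cells, where 27.1% of all genes were lower and 22% higher, 10 of 12 spindle motor and cytokinesis genes, 11 of 14 DNA synthesis genes, 8 of 9 kinetochore genes, 8 of 9 condensin and chromatin genes and 8 of 10 origin licensing genes were lower. So were 8 of 11 checkpoint genes, 7 of 12 transcription factors, 5 of 9 tested genes of mitotic entry and exit and 4 of 6 D cyclins and partner kinases, and none of these lists had a gene called higher. Anln, a cytokinesis scaffold, differed by -4.27 ± 0.27 (log2, SE) and Dut, which clears dUTP, by -4.24 ± 0.23. The CDK inhibitors and pocket proteins were split, with 4 of 10 higher and 2 lower, the lower ones being Cdkn2a (-5.01 ± 0.25) and Cdkn2b (-4.22 ± 0.38), inhibitors of the D cyclin kinases. Ccnd2 (-4.83 ± 0.25) and Ccnd1 (-2.30 ± 0.20) were lower as well. Against the other host classes, basophils had 9 of 12 spindle genes higher with all barcodes (15.1% of all genes) and 0 without the marked ones (8.5%), and macrophages/microglia had 1 (15.2%) and then 8 (18.1%). The other lists moved less in macrophages/microglia: 0 and then 4 of 9 kinetochore genes, 1 and then 4 of 9 genes of mitotic entry and exit, 1 and then 3 of 11 checkpoint genes and 0 and then 2 of 9 condensin genes were higher. In the DNA synthesis, licensing and transcription factor lists the count went from 1 to 2, and in both remaining lists it was 1 each time. In basophils the kinetochore list went from 7 to 0, condensin from 6 to 0, DNA synthesis from 8 of 14 to 1, mitotic entry and exit from 5 to 1, checkpoint from 3 to 0 and licensing from 2 to 0. Transcription factors went from 5 to 2 and D cyclins from 4 to 2, whereas 4 CDK inhibitors and pocket proteins were higher in either case.

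Within tumour cells, the same pathway genes were described over the groups that the members define, without a test. Cells G2/M-positive only were set against the 824 cells not cycling: the median ratio of mean CPM was 8.94 for the kinetochore list, 7.74 for spindle motors and 7.19 for mitotic entry and exit, but 1.74 for DNA synthesis. In cells S-positive only, DNA synthesis genes had a median ratio of 2.64 and the kinetochore list 3.32. Of 7307 other genes that met a floor of 10 CPM, 1.16% were at least 2-fold higher in the G2/M-positive cells. In the S-positive cells it was 0.602%, and in cells positive for both 1.64%. The lists had no such floor (Nuf2 of the kinetochore list had 2.13 CPM in cells not cycling), so they and this background were not filtered alike. Kif23, a motor of the dividing cell's midzone, went from 9.82 CPM in cells not cycling to 19.7 in S-positive and 78.4 in G2/M-positive cells. The median ratios of D cyclins and their kinases (1.12 and 1.06 in the S-positive and G2/M-positive groups) and of CDK inhibitors and pocket proteins (1.14 and 1.09) were near 1, but their genes differed. Cdkn2a had 385, 363 and 388 CPM, whereas the ratios were 2.37 and 4.33 for Cdkn2c, an inhibitor at only 1.31 CPM in cells not cycling, 1.91 and 1.84 for the pocket protein gene Rbl1, 1.21 and 2.15 for Cdkn2d, and 0.77 and 0.72 for Cdkn2b. Median depth moved with these groups, from 37781 UMIs in cells not cycling to 44811 and 56921, and median Nras was 2719, 2191 and 2236 CPM. The part of either in the ratios was not tested.

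**Figure D5:**
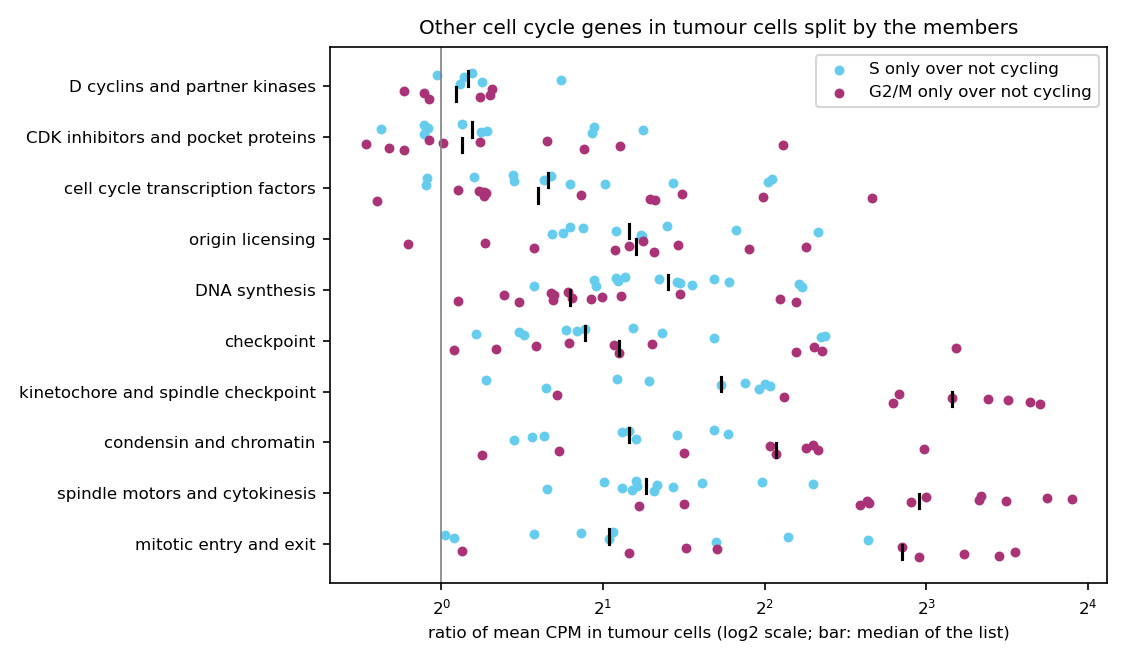
Each point is 1 pathway gene, as the ratio (log2 scale) of its mean CPM in S-positive only or G2/M-positive only tumour cells to cells not cycling, with a bar at each list's median. Kinetochore and spindle genes reach median ratios of 8.94 and 7.74 in G2/M-positive cells, while the medians of D cyclins and of CDK inhibitors are near 1, with single genes such as Cdkn2c well above it.

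Across the 1960 scored tumour cells the G2/M members had higher pairwise correlations than the S members. The median Pearson correlation of log levels was 0.67 within G2/M, 0.31 within S and 0.17 between the phases, a description over cells that share library and differ in depth. Ccna2 and Birc5 were the closest pair (r = 0.87). Tumour cells with a UMI of Csf3, the gene of the granulocyte factor G-CSF, were cycling in 208 of 315 cells (66%) against 928 of 1645 without (56.4%), with 70.6% and 60.0% against 55.2% and 57.9% per library. Their median depth was 57801 against 42834 UMIs, and its part in that gap was not tested.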

How the data were processed

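Single-cell RNA was measured by 10x droplet sequencing in 2 libraries. Per the labels, the authors aligned reads to mm10 with STAR within Cell Ranger 3.1 and counted UMIs; the deposited counts are raw, per gene and barcode, and the gene annotation is not given in the sources used here. Cells with at least 200 genes and at most 15% mitochondrial UMIs were kept. CPM is a gene's UMIs as a share of the UMIs of its class and library, times 1000000. Host classes need at least 5 UMIs of C1qa, 1 of Ly6c2 with 5 of Lyz2, or 1 of Mcpt8, Ccr7 or Cd3e. Doublets called by scrublet (14 cells) were kept and left out in an alternative. Cells under 2000 UMIs were left out of shares; thinning used 1 random seed.

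Class sums (12, from 6 classes and 2 libraries) entered 1 edgeR 4.0.16 quasi-likelihood fit in R 4.3.3, with TMM factors, the library as a block, genes with at least 50 UMIs and 5 residual degrees of freedom, with p-values adjusted over all genes in each of 10 contrasts. On simulated data the fit of macrophages/microglia against tumour cells recovered 49 of 100 genes changed 2-fold and 98 of 100 changed 4-fold. There were 0 false calls among 12861 genes, and for T cells it was 28 and 100, with 7 false calls. The changed genes were drawn only from those well counted in the class, and all other genes had the same mean in every class. These rates therefore do not cover members with few UMIs in a class, nor real contrasts in which many genes differ. DESeq2 1.42.0, other filters, scaling, thresholds and depths were alternatives. Host classes share their references, so the contrasts are not independent. Promoters are from RefSeq (GRCm38.p6), and the bounds of the annotated genes are from GENCODE on GRCm38. Named are the member of each role with most tumour UMIs and members called higher in a host class, and for pathway lists the 2 largest called differences; Kif23, Rbl1 and the Cdkn2 genes within tumour cells and single barcodes were named after their values were seen where the rule did not name them. The members and lists were chosen with earlier results of these data known.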

Additional observations from a re-analysis of the deposited data

Results flagged for a closer look

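Barcodes that entered no class comparison also held cycling cells. Of the 286 scored barcodes that met no class rule, 104 (36.4%) were cycling, 38.0% and 33.3% in the 2 libraries, against 0 of 15 neutrophils. Of the 335 barcodes in this set 161 met the tumour mark. Of 56 barcodes that met several host rules, 4 (7.14%) were cycling, and 2 of the 56 were tumour-marked.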

How the results depend on the processing

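T cells, DC and monocytes rest on 52 to 76 barcodes, and a few deep barcodes can decide a class sum, as in basophils. Leaving out each library moved the cycling share within 57.8 to 58.2% in tumour cells, 9.09 to 11.5% in macrophages/microglia, 0 to 2.70% in monocytes, 2.86 to 3.23% in basophils, 4.76 to 12.5% in DC and 11.1 to 12.5% in T cells. The fit pairs the classes within each library through the library block. Without a replicate block, members higher in macrophages/microglia than in other host classes went from 2 (15.2% of all genes) to 0 (15.6%). Fits without 1 library were not run as tests, since 1 sum per class leaves no residual degrees of freedom.

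Cycling shares in the order tumour, macrophage/microglia, basophil, DC and T cells were 69.7, 17.8, 12.1, 27.0 and 25.5% with at least 2 UMIs (monocytes 4.29%), 36.1, 6.05, 1.46, 2.63 and 5.77% at 1000 UMIs a cell, 81.0, 22.5, 36.8, 35.8 and 37.0% at 5000 UMIs, and 54.1, 8.22, 4.35, 2.63 and 5.77% at 1500 CPM without thinning. With at least 5 UMIs they were 39.8% in tumour cells, 5.29% in macrophages/microglia, 2.27% in basophils and 3.92% in T cells. Another thinning seed gave 57.3% in tumour cells, 5.30% in basophils and 13.7% in T cells. Barcodes of several rules counted in each gave 3.92% in monocytes. Host Nras under 200 CPM gave 0.980% in basophils and 13.0% in T cells, and leaving out tumour-marked barcodes 0.787% and 10.2%.

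The next counts are of 40 members, but of 30 with filterByExpr and of 38 with cells thinned before summing. Percentages in brackets are the shares of all genes called the same way. Members lower than in tumour cells, in basophils, numbered 3 (6.15%). They became 7 without TMM factors (10.8%), 7 with filterByExpr (15.2%) and 11 with barcodes of several rules (11.9%). There were 26 with host Nras under 200 CPM (19.1%), 27 without tumour-marked barcodes (21.3%) and 31 with cells thinned before summing (22.5%). With thinned cells there were 19 in monocytes (15.59%), 16 in DC (15.36%) and 11 in T cells (11.43%). With DESeq2 there were 19 in macrophages/microglia (20.03%), 5 in DC (10.99%) and 9 in T cells (11.22%). Members higher than in other host classes, in macrophages/microglia, became 0 with DESeq2, 0 with filterByExpr and 0 with barcodes of several rules; 1 with no TMM factors, with no filter, without scrublet doublets and without barcodes lacking Malat1; 19 with host Nras under 200 CPM, 22 without tumour-marked barcodes and 9 with thinned cells. In basophils these 3 last settings gave 5 (7.49%), 2 (8.5%) and 1 (9.96%), and in DC 0 (7.79%), 0 (8.3%) and 0 (6.97%). In T cells they gave 8 (3.99%), 8 (3.87%) and 2 (2.39%). Monocytes had 1 with host Nras under 200 CPM (8.61%). DC had 4 with DESeq2 (10.5%) and 4 with filterByExpr (12.7%), and T cells 3 with DESeq2 (5.65%). The share of G2/M promoters with TTTGAA went from 70.6% to 41.2% with the 250 bases before the start only. The causes were not tested.

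Called differences that changed sign are given as log2 differences from the other host classes, and each rests on 0 to 3 UMIs of the gene in the class, so that its size depends on the prior count and only its sign is meant. In basophils without tumour-marked barcodes they were Bub1 -4.31, Tpx2 -1.21, Ube2c -0.33, Cenpe -6.21, Rrm1 -0.29, Mki67 -9.65, Cdk1 -7.50, Hmmr -7.80, Top2a -1.51, Ccnb1 -1.17 and Kif20b -8.46. With host Nras under 200 CPM they were Cenpe -6.49, Rrm1 -0.57, Mki67 -2.23, Cdk1 -0.0298, Top2a -2.16, Ccnb1 -1.18 and Kif20b -8.54. With thinned cells they were Bub1 -2.12, Ube2c -1.43, Tyms -0.14, Mcm2 -4.16, Rrm1 -1.07, Cdk1 -0.0551, Hmmr -3.50, Aurkb -2.49, Top2a -0.71, Birc5 -0.27 and Cdc45 -3.20. In DC they were Ube2c -9.67 and Ccnb1 -0.34 without tumour-marked barcodes, Ube2c -11.21, Cdc20 -7.14 and Ccnb1 -0.16 with host Nras under 200 CPM, and Cdc20 -2.83 with thinned cells. Pclaf in T cells against tumour cells went to -0.23 with thinned cells.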
